A study of Penicillium oxalicum with 18 samples.

Results

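Of the 9261 identifiers in the expression table of the filamentous fungus Penicillium oxalicum, 35 begin with XLOC_ and the other 9226 begin with PDE_, the locus tags of the annotated genes of strain 114-2. The 35 XLOC_ loci are all identifiers with that prefix, and no threshold on a measured value was used to take them. This set was chosen with earlier results of these data known. The libraries came from mycelium of the wild type 114-2 and of a strain with nag3 deleted, grown for 24 h at 30 °C in a first medium with 2% glucose and then for 24 h in a second medium. The carbon source of the second medium was 1% bran with 1% microcrystalline cellulose (bran-cellulose below), 2% glucose again, or 2% GlcNAc (N-acetylglucosamine), which gave 6 groups of 3 libraries and 18 libraries in all. GlcNAc is named in the labels of its samples but not in the growth protocol that all samples share. The labels do not state the product of nag3, how the strain was made or whether more than 1 transformant was used, and the table does not pair its identifiers with gene names, so the level of nag3 could not be checked by name.

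As background, transcript assemblers that use XLOC_ numbers give one to each transcribed stretch they build, known genes included, and the table shows the number only for stretches that carry no PDE_ tag. Such an untagged locus can be a protein-coding gene that the annotation missed, a non-coding or antisense RNA, or an end of a neighbouring transcript that was assembled apart from it. GlcNAc is the sugar unit of chitin, a main polymer of the fungal cell wall, and fungi can take it up as a source of carbon and nitrogen. In cellulolytic fungi, bran and cellulose induce the genes of plant cell wall degradation, and glucose represses them. Positions, strands, lengths and sequences of the 35 loci were not analysed here, and neither was their relation to neighbouring PDE_ genes. No gene name or role is given to any locus for that reason. The reference gene table at hand matched 0 of the loci but also 0 of the PDE_ identifiers, so the missing match says nothing particular about the loci.

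Values were FPKM (fragments scaled to the length of the locus or gene model and to the mapped fragments of the library). The labels' protocols describe libraries of tags cut with NlaIII and MmeI, and it is not clear which library type gave these values. Whether levels of loci and PDE_ identifiers can be compared per length is therefore not settled, and their comparison below is of the deposited FPKM. The labels do not say whether the 3 libraries of a group came from separate cultures, so the p-values measure the spread between these libraries, which may be technical. The FPKM of 1 library summed to 920824 at the lowest and 1083828 at the highest, with 854 to 955 identifiers at 0. The Pearson correlation of log2(FPKM + 1) over all identifiers lay between 0.963 and 0.990 for libraries of the same group, and 0 pairs of libraries held identical values. The number of reads per library is unknown, so no counting interval can be given for low values.

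Most of the loci lay at low levels. Over the 18 libraries the median locus had a mean of 2.94 FPKM, against 25.8 FPKM for the median PDE_ identifier. A mean under 1 FPKM was found in 9 loci (25.7%, against 12.0% of PDE_ identifiers) and a mean of 1 to under 10 FPKM in 17 loci (48.6% against 17.2%). Another 7 loci lay between 10 and under 100 FPKM (20% against 53.1%), and 2 lay at 100 FPKM or more (5.71% against 17.7%). The median locus stood at percentile 17.7 of the PDE_ identifiers, and the same median taken in each library ran from 16.5 to 21.5 (SD 1.71 over 18 libraries). No locus was listed at 0 in all 18 libraries, 28 were above 0 in every one, and 14 (40%, against 74.3% of PDE_ identifiers) were at 1 FPKM or more in every one. It is not stated which reads the loci were assembled from. If these libraries were used, the loci would have reads in some of them by construction.

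**Figure D1:**
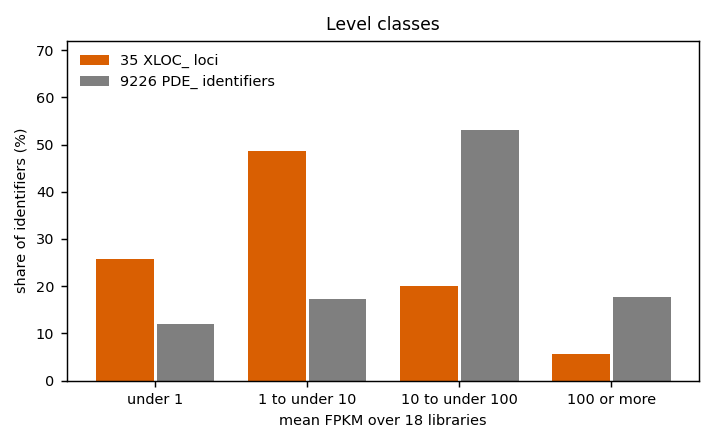
Share of the 35 XLOC_ loci (orange) and of the 9226 PDE_ identifiers (grey), in percent, by class of mean FPKM over the 18 libraries. The XLOC_ loci are most frequent at 1 to under 10 FPKM (48.6%), and the PDE_ identifiers at 10 to under 100 FPKM (53.1%).

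The gap to the annotated genes was present in every group. The median locus had 1.40 FPKM in the wild type and 1.93 FPKM in the deletion on bran-cellulose, while the median PDE_ identifier had 24.8 and 25.2 FPKM. On glucose the median locus had 1.59 and 2.16 FPKM in these genotypes, and the median PDE_ identifier 21.9 and 22.6 FPKM. On GlcNAc the loci had their highest medians, 2.76 FPKM in the wild type and 2.95 FPKM in the deletion, against 20.8 and 24.5 FPKM for the PDE_ identifiers. Together the 35 loci made up 0.0413% ± 0.0009 (SD, n = 3) of the FPKM sum in the wild type on bran-cellulose and 0.0825% ± 0.0030 in the deletion on GlcNAc, the groups with the lowest and highest share. Every library of the deletion on GlcNAc lay above every library of the other groups in this share, which is given as a description.

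**Figure D2:**
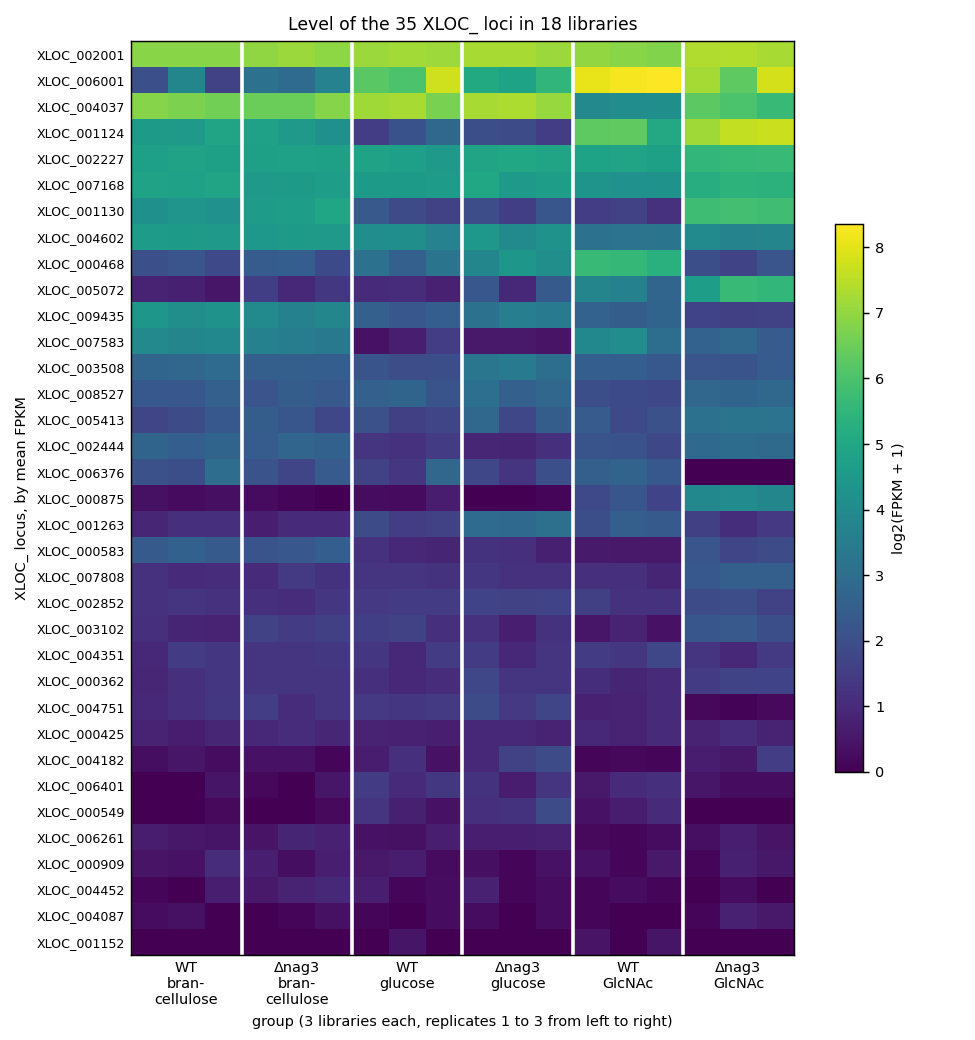
Level of each XLOC_ locus (vertical, ordered by mean FPKM) in each of the 18 libraries (horizontal, in 6 groups of 3), coloured by log2(FPKM + 1). XLOC_002001, at the top, is bright in all 18 libraries, while XLOC_006001 and XLOC_001124 change colour from group to group.

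The 3 highest loci held 60.0% of the FPKM sum of all 35. XLOC_002001 was the highest, at percentile 86.7 of the PDE_ identifiers by its mean of 135 FPKM, and its group means had the narrowest range (0.47 on the log2(FPKM + 1) scale) of the 9 loci with a mean of 10 FPKM or more. On bran-cellulose it lay at 115.63, 115.73 and 115.46 FPKM in the wild type and 124.93, 137.62 and 122.8 FPKM in the deletion. Glucose gave 135.29, 144.83 and 139.92 FPKM in the wild type and 152.67, 154.79 and 137.7 FPKM in the deletion, and GlcNAc gave 127.11, 116.27 and 108.45 FPKM in the wild type and 162.68, 167.32 and 152.95 FPKM in the deletion. Its 18 libraries all lay within 108.45 to 167.32 FPKM, and XLOC_002001 was called in 0 of the 9 comparisons of 2 groups, although on GlcNAc its genotypes did not overlap (adjusted p = 8.80e-05, log2 difference 0.46).

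XLOC_006001, the second highest by mean (103 FPKM), had the widest range of group means among the loci, 5.73 on the log2(FPKM + 1) scale. It was low on bran-cellulose, with 3.1, 13.25 and 2.13 FPKM in the wild type and 7.82, 6.57 and 11.92 FPKM in the deletion. On glucose XLOC_006001 lay at 74.5, 62.82 and 214.91 FPKM in the wild type and 32.68, 27.94 and 44.29 FPKM in the deletion. It was highest on GlcNAc, with 269, 303.66 and 328.18 FPKM in the wild type and 150.36, 77.64 and 225.97 FPKM in the deletion. The SE of its group differences (0.54 on the log2 scale) was the largest of the 30 loci tested, and replicate 3 of the wild type on glucose stood well above the other wild-type libraries on that medium. In those 3 wild-type glucose libraries brlA (PDE_00087), a regulator of asexual spore formation, lay at 46.0, 83.9 and 150.4 FPKM. Replicate 3 was again the highest, but replicates 1 and 2 were in the opposite order to XLOC_006001. On bran-cellulose, where XLOC_006001 was lowest, brlA had means of 253.1 ± 44.1 FPKM in the wild type and 253.2 ± 30.3 FPKM in the deletion. On GlcNAc the means of brlA were 444.9 ± 69.5 and 279.4 ± 61.8 FPKM in these genotypes. The part of brlA in the XLOC_006001 result was not tested.

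XLOC_004037, the third highest (93.4 FPKM), was high on bran-cellulose and glucose. Bran-cellulose gave 113.03, 104.5 and 93.94 FPKM in the wild type and 88.36, 89.25 and 113.35 FPKM in the deletion. Glucose libraries of XLOC_004037 lay at 144.33, 154.41 and 102.36 FPKM in the wild type and 152.94, 158.58 and 132.3 FPKM in the deletion. GlcNAc libraries lay at 14.47, 16.14 and 17.07 FPKM in the wild type and 74.91, 62.37 and 49.05 FPKM in the deletion. On GlcNAc both genotypes were thus below every library of the other media, and the wild type was below the deletion.

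The groups were compared on the 8390 identifiers that reached 1 FPKM in 3 or more libraries, 30 of the 35 loci among them (85.7%, against 90.6% of PDE_ identifiers). A locus was called where limma, fitted over all of these identifiers, gave an adjusted p below 0.05 and the log2 difference was 1 or more in size, and only called loci are said to have risen or fallen. The offset of 1 FPKM inside each logarithm makes the change of low loci look smaller than it was. XLOC_000425, XLOC_000549 and XLOC_004182 would not have passed without the libraries of their highest group, so counts of called loci over those that passed are descriptions and not a measure of all 35. Across the 6 groups the median locus varied by 1.49 between its lowest and highest group mean on the log2(FPKM + 1) scale, and the median PDE_ identifier by 1.21. The median SD within groups was 0.19 for both, but the offset also shrinks the SD of low loci, and the loci lay lower. The part of the spread between replicates in the wider range was not tested. A range of at least 1 was found in 23 loci (76.7%, against 61.6% of PDE_ identifiers).

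On bran-cellulose no locus was called between the genotypes. limma called 0 of 30 loci higher and 0 lower in the deletion, beside 0.191% of all 8390 identifiers higher and 0.203% lower. At an unadjusted p under 0.05 there were 5 loci, and their adjusted p ran from 0.18 to 0.63. XLOC_009435 had the lowest of these p-values, with 20.73, 16.73 and 18.82 FPKM in the wild type and 14.51, 11.86 and 13.31 FPKM in the deletion (adjusted p = 0.18, log2 difference -0.47 with SE 0.13). Its libraries did not overlap between genotypes, but the difference did not pass the threshold.

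On glucose the deletion had 3 loci higher and 1 lower. XLOC_001263, XLOC_003508 and XLOC_000468 rose and XLOC_006001 fell, out of 30 loci, beside 4.91% of all identifiers higher and 6.14% lower. The median log2 difference was 0.15 over the loci and 0.09 over all identifiers.

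XLOC_001263 on glucose lay at 2.85, 1.87 and 2.14 FPKM in the wild type and 6.54, 6.31 and 7.41 FPKM in the deletion, with no overlap (adjusted p = 6.43e-05, log2 difference 1.25 with SE 0.17). On bran-cellulose it was low in both genotypes, with 0.85, 1.16 and 1.2 FPKM in the wild type and 0.63, 1 and 1.06 FPKM in the deletion. On GlcNAc the order of the genotypes was the opposite of that on glucose, with 3.07, 4.78 and 4.22 FPKM in the wild type and 1.97, 1.15 and 1.59 FPKM in the deletion, and this difference fell short of the fold threshold (adjusted p = 0.00019, log2 difference -0.96 with SE 0.17).

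XLOC_003508 on glucose lay at 3.47, 2.91 and 3.02 FPKM in the wild type and 8.78, 9.97 and 7.17 FPKM in the deletion, with every deletion library at more than the highest wild-type library (adjusted p = 3.18e-06, log2 difference 1.21 with SE 0.12). Its libraries on bran-cellulose lay at 5.68, 5.82 and 6.56 FPKM in the wild type and 4.8, 4.81 and 4.71 FPKM in the deletion. GlcNAc gave 4.67, 4.69 and 3.95 FPKM in the wild type and 3.56, 3.52 and 4.42 FPKM in the deletion. The wild type was thus the higher genotype on bran-cellulose, the genotypes overlapped on GlcNAc, and neither difference was called.

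XLOC_000468 on glucose lay at 7.85, 4.91 and 8.26 FPKM in the wild type and 13.23, 20.48 and 16.72 FPKM in the deletion (adjusted p = 0.000702, log2 difference 1.16 with SE 0.21). Without replicate 2 of the wild type on glucose the difference was 0.96 and no longer passed the fold threshold. On bran-cellulose XLOC_000468 was low, with 3.16, 3.65 and 2.58 FPKM in the wild type and 4.36, 4.67 and 2.71 FPKM in the deletion. On GlcNAc it showed the opposite difference, with 49.22, 46.38 and 39.03 FPKM in the wild type and 3.05, 2.25 and 3.56 FPKM in the deletion. The lowest wild-type library on GlcNAc was thus above 10 times the level of the highest deletion library.

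XLOC_006001 on glucose fell from 117.4 ± 84.6 to 34.97 ± 8.41 FPKM (adjusted p = 0.0401, log2 difference -1.52 with SE 0.54, n = 3 each), and its libraries did not overlap. Without replicate 3 of the wild type the difference was -0.97 (adjusted p = 0.187), and without deletion replicates 1, 2 or 3 the adjusted p was 0.0932, 0.0966 or 0.0518. The call also ended with all 6 libraries kept, at an adjusted p of 0.0558 with an offset of 0.1 FPKM, 0.0542 with no filter on low values and 0.0927 with only the groups compared in the fit. On glucose brlA had a mean of 93.4 ± 52.8 FPKM in the wild type and 3.05 ± 1.38 FPKM in the deletion, and its part in the results on this medium was not tested.

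On GlcNAc more loci were called between the genotypes than on the other media. In the deletion 10 of the 30 loci rose (33.3%) and 3 fell, beside 16.7% of all identifiers higher and 10.7% lower. The median log2 difference was 0.64 over the loci and 0.20 over all identifiers. Scaling each library by its median ratio moved the median of all identifiers to 0.00 and that of the loci to 0.46, and 8 loci were then higher and 6 lower (57.1% of the called loci higher, against 76.9% before). Under that scaling 1003 of all identifiers were higher and 1207 lower, against 1401 and 898 before, so the balance of directions on GlcNAc depends on the scaling. XLOC_005413 (0.87) and XLOC_007168 (0.81) were then under the fold threshold, and XLOC_001263 (-1.14), XLOC_006001 (-1.35) and XLOC_009435 (-1.14) were called lower.

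**Figure D3:**
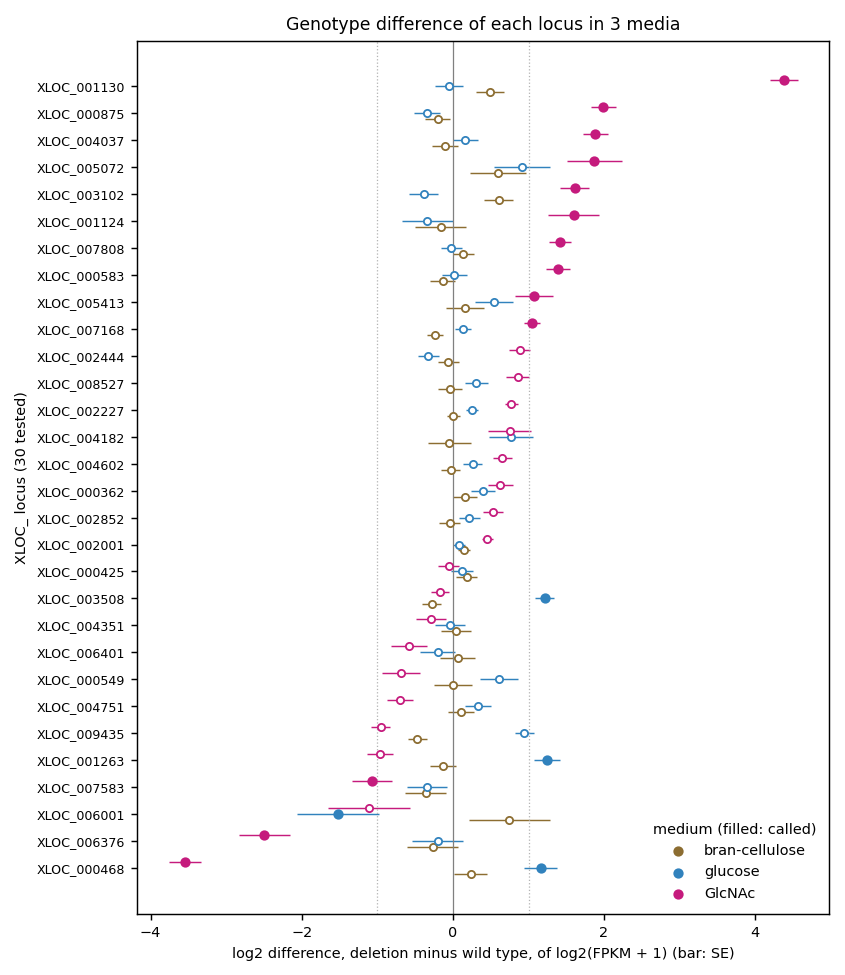
Log2 difference between the nag3 deletion and the wild type, on log2(FPKM + 1), for each of the 30 tested loci on bran-cellulose, glucose and GlcNAc (bars are SE, filled points are called, dotted lines mark 1 and -1). On GlcNAc 10 loci lie right of the fold threshold as called and 3 left of it, with XLOC_001130 (4.38) and XLOC_000468 (-3.54) at the ends.

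XLOC_001130 rose the most of all loci on GlcNAc. Its libraries lay at 1.87, 2.06 and 1.28 FPKM in the wild type and 54.01, 57.15 and 55.24 FPKM in the deletion (adjusted p = 7.55e-11, log2 difference 4.38 with SE 0.19). On bran-cellulose XLOC_001130 lay at 17.27, 19.34 and 17.71 FPKM in the wild type and 22.93, 25.04 and 30.19 FPKM in the deletion. Glucose gave 4.04, 2.88 and 2.16 FPKM in the wild type and 2.94, 1.94 and 3.77 FPKM in the deletion. The highest wild-type libraries were thus those on bran-cellulose, and the highest deletion libraries those on GlcNAc.

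XLOC_000875 and XLOC_005072 were low outside GlcNAc and higher in the deletion on it. XLOC_000875 on GlcNAc lay at 2.59, 3.75 and 2.22 FPKM in the wild type and 13.86, 15.25 and 13.16 FPKM in the deletion (adjusted p = 8.51e-08, log2 difference 1.99 with SE 0.17). On bran-cellulose it lay at 0.31, 0.18 and 0.28 FPKM in the wild type and 0.19, 0.09 and 0 FPKM in the deletion, and on glucose at 0.2, 0.19 and 0.57 FPKM in the wild type and 0, 0 and 0.1 FPKM in the deletion. No library outside GlcNAc reached 1 FPKM for XLOC_000875, while all 6 on GlcNAc did. XLOC_000875 thus passed the filter only through its GlcNAc libraries, so its differences between GlcNAc and the other media are in part a matter of the filter. XLOC_005072 on GlcNAc lay at 13.01, 11.89 and 5.65 FPKM in the wild type and 24.33, 48.75 and 45.82 FPKM in the deletion (adjusted p = 0.000396, log2 difference 1.87 with SE 0.37). Bran-cellulose gave 0.77, 0.68 and 0.42 FPKM in the wild type and 1.92, 0.94 and 1.58 FPKM in the deletion, and glucose gave 1.02, 1.1 and 0.7 FPKM in the wild type and 3.84, 0.94 and 4.11 FPKM in the deletion. All 6 GlcNAc libraries of XLOC_005072 were above the 12 libraries of the other media, and replicate 3 of the wild type and replicate 1 of the deletion were the lowest of their groups.

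XLOC_001124 had the second widest range of group means among the loci, 5.68 on the log2(FPKM + 1) scale. On GlcNAc it lay at 76.81, 79.72 and 32.25 FPKM in the wild type and 142.89, 191.89 and 208 FPKM in the deletion (adjusted p = 0.000727, log2 difference 1.60 with SE 0.34). On bran-cellulose the libraries of XLOC_001124 lay at 22.59, 22.23 and 28.58 FPKM in the wild type and 26.69, 21.98 and 17.25 FPKM in the deletion, with overlap between genotypes. Glucose gave 1.89, 3.32 and 6.01 FPKM in the wild type and 3.01, 2.76 and 1.88 FPKM in the deletion, the lowest levels of the 3 media. As for XLOC_005072, replicate 3 was the lowest wild-type library on GlcNAc.

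XLOC_004037, whose libraries are given above, rose from 15.89 ± 1.32 to 62.11 ± 12.9 FPKM (n = 3 each) in the deletion on GlcNAc (adjusted p = 1.64e-07, log2 difference 1.88 with SE 0.17). The deletion thus lay between the wild type on GlcNAc and the levels on the other media.

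**Figure D4:**
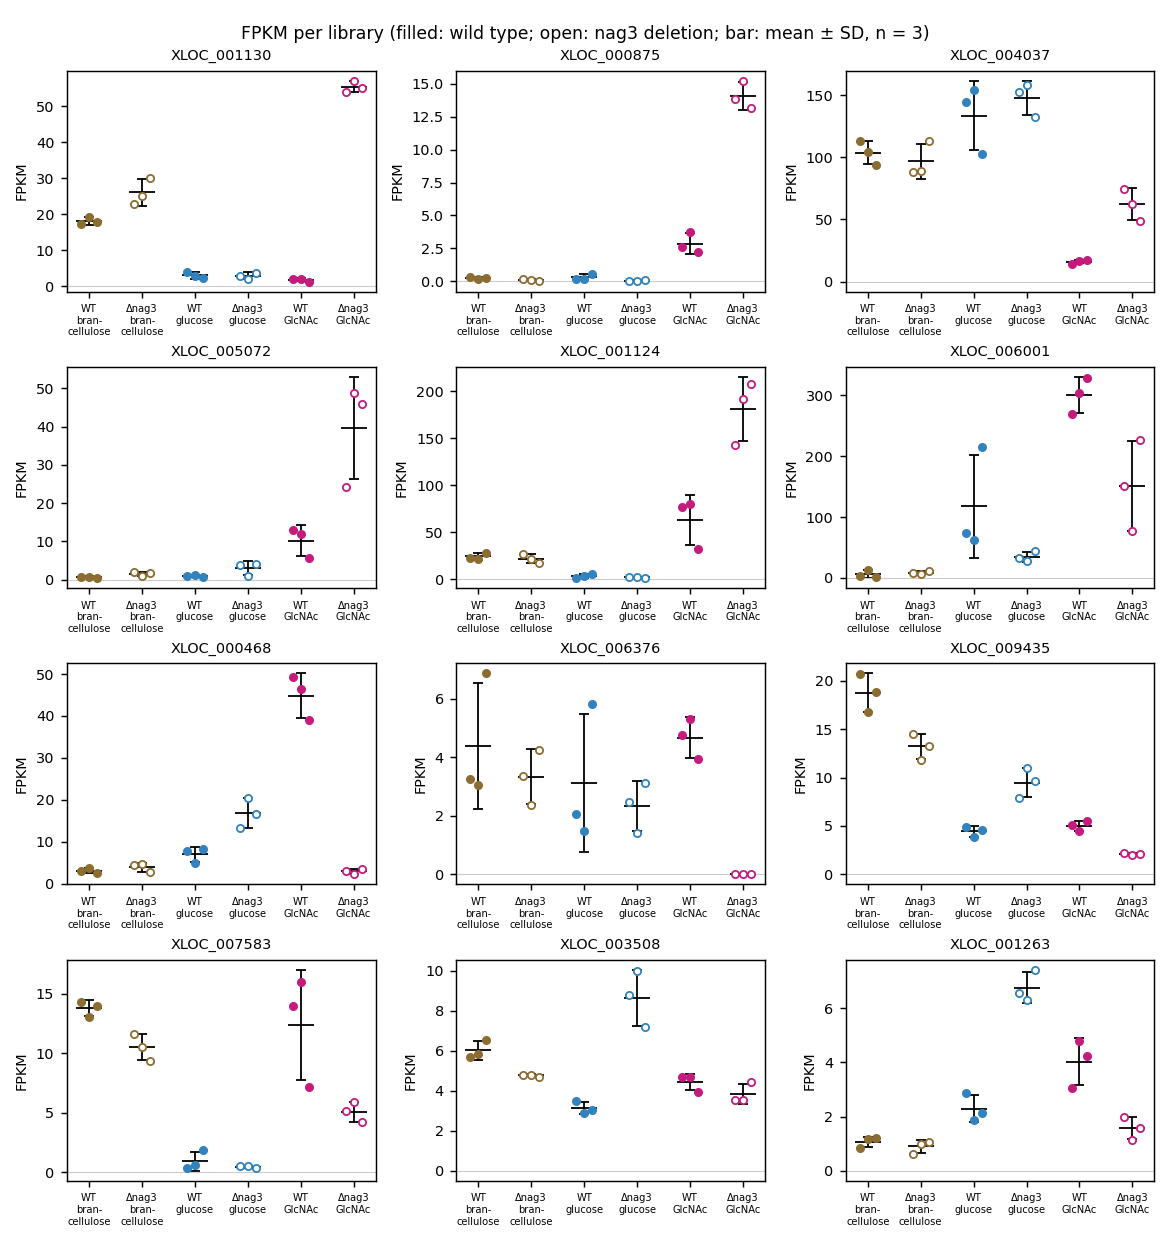
FPKM in each library for 12 loci in the 6 groups (filled points wild type, open points nag3 deletion, black bars mean ± SD, n = 3), each panel with its own axis. XLOC_001130 and XLOC_000875 are highest in the deletion on GlcNAc, XLOC_000468 is highest in the wild type on GlcNAc, and XLOC_006376 is listed at 0 in the 3 deletion libraries on GlcNAc.

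Another 4 loci rose in the deletion on GlcNAc. Of these, XLOC_003102, XLOC_007808 and XLOC_000583 had their lowest wild-type mean on that medium, and XLOC_005413 did not. XLOC_003102 lay at 0.42, 0.79 and 0.34 FPKM in the wild type and 3.76, 4.03 and 3.07 FPKM in the deletion (adjusted p = 3.30e-06, log2 difference 1.61 with SE 0.19). On bran-cellulose it lay at 1.25, 0.81 and 0.75 FPKM in the wild type and 2.05, 1.77 and 1.97 FPKM in the deletion, and on glucose at 1.92, 2.12 and 1.16 FPKM in the wild type and 1.28, 0.64 and 1.35 FPKM in the deletion. The wild type on GlcNAc was thus the lowest and the deletion on GlcNAc the highest group for XLOC_003102. XLOC_007808 on GlcNAc lay at 1.21, 1.17 and 0.81 FPKM in the wild type and 3.93, 4.8 and 4.78 FPKM in the deletion (adjusted p = 4.82e-07, log2 difference 1.42 with SE 0.14). Its levels on bran-cellulose were 1.3, 1 and 1.11 FPKM in the wild type and 1.05, 1.69 and 1.33 FPKM in the deletion, and on glucose 1.47, 1.39 and 1.32 FPKM in the wild type and 1.51, 1.29 and 1.29 FPKM in the deletion. Only the deletion libraries on GlcNAc exceeded 2 FPKM for XLOC_007808. XLOC_000583 on GlcNAc lay at 0.52, 0.47 and 0.49 FPKM in the wild type and 3.61, 2.34 and 2.89 FPKM in the deletion (adjusted p = 3.32e-06, log2 difference 1.39 with SE 0.16). Bran-cellulose gave 4.17, 5.08 and 4.16 FPKM in the wild type and 3.52, 3.82 and 4.62 FPKM in the deletion, and glucose gave 1.28, 0.96 and 0.82 FPKM in the wild type and 1.32, 1.18 and 0.66 FPKM in the deletion. XLOC_000583 was thus high on bran-cellulose in both genotypes and on GlcNAc in the deletion. XLOC_005413 on GlcNAc lay at 4.24, 2.63 and 3.23 FPKM in the wild type and 7.82, 8.39 and 8.03 FPKM in the deletion (adjusted p = 0.00173, log2 difference 1.07 with SE 0.25), and without replicate 2 of the wild type on GlcNAc the difference was 0.95. In the wild type its mean was 3.07 ± 0.82 FPKM on bran-cellulose and 2.54 ± 0.62 FPKM on glucose. The deletion had 3.56 ± 1.02 and 4.35 ± 1.88 FPKM on these media.

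XLOC_007168 was at moderate levels in every group and rose on GlcNAc by little more than the threshold. Its GlcNAc libraries lay at 19.17, 17.78 and 18.53 FPKM in the wild type and 35.61, 41.47 and 40.8 FPKM in the deletion (adjusted p = 5.78e-07, log2 difference 1.04 with SE 0.10). On bran-cellulose it lay at 27.01, 26.39 and 28.83 FPKM in the wild type and 22.04, 22.4 and 24.89 FPKM in the deletion, and on glucose at 22.71, 22.8 and 23.33 FPKM in the wild type and 30.46, 21.7 and 24.12 FPKM in the deletion. The genotypes were in the opposite order on bran-cellulose, where the difference was not called.

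The 3 loci that fell in the deletion on GlcNAc did so by different amounts. XLOC_000468 fell from 44.88 ± 5.26 to 2.953 ± 0.660 FPKM (n = 3 each, adjusted p = 2.97e-09, log2 difference -3.54 with SE 0.21). XLOC_006376 lay at 4.76, 5.32 and 3.94 FPKM in the wild type and was listed at 0 in all 3 deletion libraries (adjusted p = 1.33e-05), so no fold is given. On bran-cellulose XLOC_006376 lay at 3.25, 3.06 and 6.87 FPKM in the wild type and 3.38, 2.38 and 4.25 FPKM in the deletion, and on glucose at 2.08, 1.49 and 5.84 FPKM in the wild type and 2.47, 1.42 and 3.12 FPKM in the deletion. It was thus detected in 15 of 18 libraries, all but the deletion on GlcNAc. XLOC_007583 on GlcNAc lay at 14, 15.96 and 7.14 FPKM in the wild type and 5.16, 5.9 and 4.24 FPKM in the deletion (adjusted p = 0.0026, log2 difference -1.07 with SE 0.27). Its call ended without deletion replicate 3 (-0.97), wild-type replicate 1 (-0.95) or wild-type replicate 2 (-0.87). On bran-cellulose XLOC_007583 lay at 14.32, 13.04 and 13.97 FPKM in the wild type and 11.65, 10.53 and 9.39 FPKM in the deletion, and on glucose at 0.34, 0.64 and 1.86 FPKM in the wild type and 0.5, 0.5 and 0.36 FPKM in the deletion. It was thus low on glucose and high on bran-cellulose in both genotypes.

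The media were then compared within each genotype. The comparisons against glucose share the glucose libraries, and those that involve bran-cellulose or GlcNAc share libraries in the same way, so each is given with its own values. With median-ratio scaling the median over all identifiers went from 0.16 to 0 for bran-cellulose against glucose in the wild type, from 0.15 to -0.02 for bran-cellulose against GlcNAc in the wild type and from 0.14 to 0.02 for GlcNAc against glucose in the deletion. The loci called higher and lower were then 6 and 3, beside 8.68% and 9.86% of all identifiers, in the first of these comparisons. They were 5 and 6, beside 9.82% and 8.16%, in the second, and 9 and 8, beside 13.2% and 16.9%, in the third. In the wild type 6 loci rose and 2 fell on bran-cellulose against glucose, beside 10.8% of all identifiers higher and 7.94% lower. In the deletion 5 rose and 5 fell, beside 12.4% higher and 11.8% lower. Of these loci 6 were called in the same direction in both genotypes, which is 75% of the 8 called in the wild type and 60% of the 10 called in the deletion. Over all identifiers 1174 were called in the same direction in both, 74.8% of the 1570 wild-type calls and 57.8% of the 2031 deletion calls, so the shares for the loci lie near this background. The 6 loci were XLOC_000583, XLOC_001124, XLOC_001130, XLOC_002444 and XLOC_007583, which rose, and XLOC_006001, which fell.

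XLOC_007583 had the largest rise of the loci on bran-cellulose in both genotypes, from 0.9467 ± 0.805 to 13.78 ± 0.661 FPKM in the wild type (adjusted p = 4.46e-07, log2 difference 3.0 with SE 0.27) and from 0.4533 ± 0.0808 to 10.52 ± 1.13 FPKM in the deletion (adjusted p = 1.99e-07, log2 difference 2.98 with SE 0.27). XLOC_001124 rose by 2.51 in the wild type and 2.69 in the deletion, and XLOC_001130 by 2.27 and 2.82 on the log2 scale. XLOC_000583 rose by 1.44 in the wild type and 1.29 in the deletion. XLOC_002444 lay at 5.51, 4.64 and 5.53 FPKM in the wild type and 4.35, 5.61 and 5 FPKM in the deletion on bran-cellulose and at 1.38, 1.28 and 1.78 FPKM in the wild type and 0.88, 0.82 and 1.24 FPKM in the deletion on glucose, with no overlap between media in either genotype (log2 differences 1.33 and 1.60). XLOC_006001 fell from 117.4 ± 84.6 to 6.16 ± 6.16 FPKM in the wild type (adjusted p = 1.65e-05, log2 difference -4.16 with SE 0.54) and from 34.97 ± 8.41 to 8.77 ± 2.80 FPKM in the deletion (adjusted p = 0.00738, log2 difference -1.89 with SE 0.54). Beside these values, cel7A-2 (PDE_07945), which encodes the principal cellobiohydrolase, lay at 2277 ± 128 and 1495 ± 140 FPKM on bran-cellulose in the wild type and the deletion and at no more than 9.11 FPKM as a group mean elsewhere.

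The other calls between bran-cellulose and glucose were made in a single genotype. In the wild type XLOC_009435 rose, with glucose libraries at 4.85, 3.83 and 4.6 FPKM and the bran-cellulose libraries given above (adjusted p = 3.01e-08, log2 difference 1.86 with SE 0.13). In the deletion its glucose libraries lay at 7.91, 10.96 and 9.6 FPKM, and bran-cellulose was higher by 0.45 on the log2 scale, under the threshold. XLOC_006401 fell in the wild type, from 1.72, 0.99 and 1.54 FPKM on glucose to 0, 0 and 0.4 FPKM on bran-cellulose (adjusted p = 0.00112, log2 difference -1.10 with SE 0.23), and its deletion libraries lay at 1.33, 0.57 and 1.47 and 0.12, 0 and 0.42 FPKM on these media (log2 difference -0.84, not called). XLOC_001263 fell in the deletion (adjusted p = 1.17e-07, log2 difference -2.04 with SE 0.17), as did XLOC_000468 (adjusted p = 3.07e-06, log2 difference -1.86 with SE 0.21), and their wild-type differences of -0.66 and -0.94 were under the threshold. XLOC_000549 was at 1.22, 1.32 and 2.78 FPKM on glucose and 0, 0 and 0.17 FPKM on bran-cellulose in the deletion (adjusted p = 0.000273, log2 difference -1.35 with SE 0.25), and at 1.44, 0.67 and 0.34 and 0, 0 and 0.17 FPKM in the wild type. XLOC_004182 was at 0.91, 2.14 and 2.81 FPKM on glucose and 0.33, 0.32 and 0.11 FPKM on bran-cellulose in the deletion (adjusted p = 0.0024, log2 difference -1.18 with SE 0.29), a call that ended without replicate 3 of the deletion on glucose (-0.97). Both of these loci passed the filter through their deletion glucose libraries, so a difference from that group is in part a matter of the filter. A call in a single genotype does not show that the genotypes differ, and of these loci the difference itself passed the test for XLOC_009435 and XLOC_001263 (interactions of -1.42 and -1.38).

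On GlcNAc against glucose 6 loci rose and 1 fell in the wild type, beside 11.4% of all identifiers higher and 14.7% lower. In the deletion 9 rose and 7 fell, beside 15.3% higher and 15.3% lower. In both genotypes XLOC_000875, XLOC_001124, XLOC_005072, XLOC_006001 and XLOC_007583 rose and XLOC_004037 fell, which is 85.7% of the 7 loci called in the wild type and 37.5% of the 16 called in the deletion. The same overlap held 1193 of all identifiers, 54.6% of the 2185 wild-type calls and 46.4% of the 2570 deletion calls. The remaining wild-type call was XLOC_000468, which was called in both genotypes in opposite directions. It rose from 7.007 ± 1.83 to 44.88 ± 5.26 FPKM in the wild type (adjusted p = 1.30e-07, log2 difference 2.54 with SE 0.21) and fell from 16.81 ± 3.63 to 2.953 ± 0.660 FPKM in the deletion (adjusted p = 3.94e-07, log2 difference -2.17 with SE 0.21).

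On the log2(FPKM + 1) scale XLOC_001124 had the largest rise of the loci on GlcNAc in both genotypes, by 3.74 in the wild type (from 3.74 ± 2.09 to 62.93 ± 26.6 FPKM) and by 5.68 in the deletion (from 2.55 ± 0.594 to 180.9 ± 33.9 FPKM). That order in the deletion depends on the offset, since with 0.1 FPKM in place of 1 XLOC_000875 was at 6.81 and XLOC_001124 at 6.10. XLOC_000875 rose by 1.54 and 3.87 on the log2 scale in the wild type and the deletion, and XLOC_005072 by 2.46 and 3.42. The rise of XLOC_000875 is in part a matter of the filter, which it passed only through its GlcNAc libraries. XLOC_007583 rose by 2.79 in the wild type and 2.06 in the deletion. XLOC_004037 fell by 2.98 on the log2 scale in the wild type and by 1.26 in the deletion. XLOC_006001 rose by 1.57 in the wild type, a call that ended without replicate 1 (adjusted p = 0.0726) or replicate 2 (0.0903) of the wild type on glucose or replicate 3 on GlcNAc (0.0536), and by 1.98 in the deletion (adjusted p = 0.00466).

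The remaining deletion calls on GlcNAc against glucose were 4 loci that rose and 5 that fell, beside XLOC_000468. XLOC_001130 rose by 3.89, XLOC_002444 by 1.93, XLOC_007808 by 1.22 and XLOC_003102 by 1.16, and the last of these was at 0.99 without replicate 2 of the deletion on glucose. The GlcNAc libraries of XLOC_002444 lay at 3.48, 3.28 and 2.5 FPKM in the wild type and 6.2, 6.83 and 6.5 FPKM in the deletion. XLOC_009435 fell to 2.19, 2.01 and 2.12 FPKM in the deletion on GlcNAc (adjusted p = 1.37e-08, log2 difference -1.75 with SE 0.13), while its wild-type libraries on GlcNAc lay at 5.12, 4.48 and 5.51 FPKM, overlapping those on glucose. XLOC_004751 lay at 0.71, 0.74 and 1.01 FPKM in the wild type and 0.12, 0.06 and 0.17 FPKM in the deletion on GlcNAc and at 1.6, 1.48 and 1.68 FPKM in the wild type and 2.88, 1.64 and 2.35 FPKM in the deletion on glucose, and it fell in the deletion (adjusted p = 1.60e-06, log2 difference -1.54 with SE 0.17). Bran-cellulose libraries of XLOC_004751 lay at 0.93, 1.24 and 1.58 FPKM in the wild type and 1.84, 1.07 and 1.37 FPKM in the deletion. XLOC_001263 also fell in the deletion (adjusted p = 1.04e-06, log2 difference -1.60 with SE 0.17). XLOC_006376 and XLOC_000549 were called lower in the deletion on GlcNAc, where both were listed at 0 in all 3 libraries (adjusted p = 0.000421 and 0.000127). XLOC_000549 passed the filter only through its deletion glucose libraries, so its difference from that group is in part a matter of the filter. The wild-type GlcNAc libraries of XLOC_000549 lay at 0.34, 0.54 and 1.02 FPKM.

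Bran-cellulose against GlcNAc gave 5 loci higher and 6 lower in the wild type, beside 12.2% of all identifiers higher and 6.53% lower. In the deletion 3 were higher and 7 lower, beside 11.4% higher and 8.75% lower. The loci called in the same direction in both genotypes numbered 5, which is 45.5% of the 11 called in the wild type and 50% of the 10 called in the deletion, beside 37.6% of 1570 and 35% of 1688 over all identifiers (591 shared). XLOC_006001, XLOC_005072, XLOC_000875 and XLOC_001124 were lower on bran-cellulose than on GlcNAc in both, and XLOC_009435 was higher in both (1.71 in the wild type and 2.19 in the deletion). XLOC_000875 passed the filter only through its GlcNAc libraries, so its place in this count and its differences below are in part a matter of the filter. XLOC_006001 had the largest of the wild-type differences among the loci, from 300.3 ± 29.7 FPKM on GlcNAc to 6.16 ± 6.16 FPKM on bran-cellulose (adjusted p = 4.67e-07, log2 difference -5.73 with SE 0.54). In the deletion the largest were XLOC_005072 (-3.99), XLOC_006001 (-3.87) and XLOC_000875 (-3.79) on log2(FPKM + 1), an order that depends on the offset, since with 0.1 FPKM XLOC_000875 was at -6.33, XLOC_006376 at 5.07 and XLOC_005072 at -4.64.

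XLOC_001130 was called in opposite directions in this comparison, at 2.81 in the wild type and -1.07 in the deletion, where the call ended without replicate 1 of the deletion on bran-cellulose (-0.99). XLOC_004037 (2.63), XLOC_000583 (1.87) and XLOC_004602 (1.36) were higher on bran-cellulose in the wild type, and XLOC_000468 (-3.48) and XLOC_001263 (-1.27) were lower. XLOC_004602 lay at 22.88, 22.58 and 21.73 FPKM in the wild type and 21.02, 22.48 and 22.16 FPKM in the deletion on bran-cellulose and at 7.79, 8.1 and 8.37 FPKM in the wild type and 14.52, 12.46 and 12.88 FPKM in the deletion on GlcNAc, so both genotypes were lower on GlcNAc, and the deletion by less than the threshold (0.68). Its glucose libraries lay at 16.08, 16.79 and 12.19 FPKM in the wild type and 21.11, 14.76 and 18.83 FPKM in the deletion. In the deletion XLOC_006376 and XLOC_004751 were called higher on bran-cellulose than on GlcNAc, and XLOC_007808 (-1.23) and XLOC_005413 (-1.02) were lower. XLOC_004751 was at 0.99 without replicate 1 of the deletion on bran-cellulose, and XLOC_005413 was at -0.83 without replicate 3 of that group, under the threshold without replicate 2 of the deletion on GlcNAc (adjusted p = 0.0118), and at -0.98 under median-ratio scaling.

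**Figure D5:**
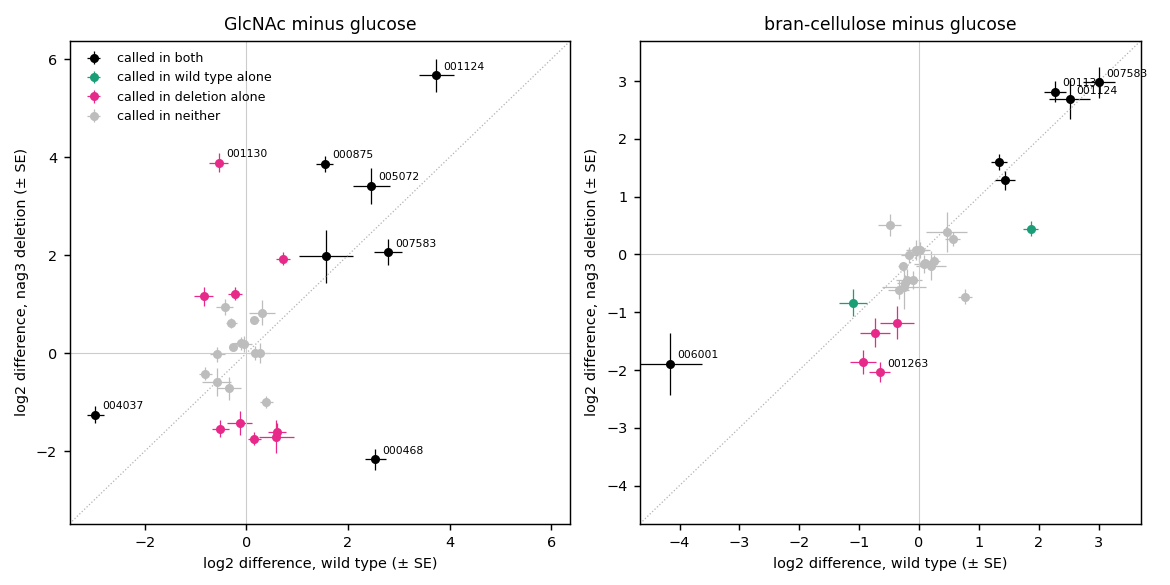
Log2 difference between media in the deletion (vertical) against that in the wild type (horizontal), on log2(FPKM + 1), for the 30 tested loci, with GlcNAc against glucose on the left and bran-cellulose against glucose on the right (bars are SE, colours show in which genotype a locus was called). XLOC_001124 lies high in both genotypes for GlcNAc against glucose (3.74 and 5.68), while XLOC_000468 (2.54 and -2.17) has opposite signs.

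An interaction term in the same fit compared the genotype difference between media. Between GlcNAc and glucose 15 of 30 loci differed, 8 with a higher and 7 with a lower genotype difference on GlcNAc, beside 15.3% and 11% of all identifiers. With median-ratio scaling 8 were again higher and 7 lower, beside 12.5% and 13%. Between bran-cellulose and GlcNAc 10 loci differed, 2 higher and 8 lower on bran-cellulose, beside 9.8% and 15.3%, and with median-ratio scaling 4 were higher and 7 lower, beside 13.2% and 10.7%. Between bran-cellulose and glucose 4 loci differed, 1 higher and 3 lower on bran-cellulose, beside 5.38% and 4.17%, and with median-ratio scaling 2 were higher and 3 lower, beside 6% and 3.73%. In all, 17 of 30 loci (56.7%) had at least 1 called interaction, beside 3051 of all identifiers (36.4%). On log2(FPKM + 1) XLOC_000468 had the largest between GlcNAc and glucose (adjusted p = 1.87e-08, log2 difference -4.71 with SE 0.30), followed by XLOC_001130 (adjusted p = 7.52e-09, log2 difference 4.43 with SE 0.26). XLOC_001130 also had the largest on that scale between bran-cellulose and GlcNAc (adjusted p = 3.92e-08, log2 difference -3.88 with SE 0.26). These orders depend on the offset, because XLOC_006376 is listed at 0 in the deletion on GlcNAc and with 0.1 FPKM had interactions of -5.33 and 5.24, against -5.16 for XLOC_000468 in the first and -4.43 for XLOC_001130 in the second. XLOC_009435, which was higher in the deletion on glucose (0.95) and lower on the other media (-0.47 on bran-cellulose and -0.96 on GlcNAc) with none of the 3 differences called, had called interactions of -1.42 for bran-cellulose against glucose and -1.90 for GlcNAc against glucose. The interactions nearest the threshold did not hold when single libraries were left out. XLOC_004751 (GlcNAc against glucose, -1.03) was at -0.90 without replicate 1 of the deletion on glucose, at -0.96 without replicate 3 of the wild type on GlcNAc and under the threshold without replicate 2 of the deletion on GlcNAc (adjusted p = 0.00835). XLOC_003102 (bran-cellulose against GlcNAc, -1.01) lay between -0.98 and -0.89 without any of 6 libraries, which were replicates 1 and 2 of the deletion on GlcNAc, replicates 1 and 3 of the wild type on GlcNAc, replicate 2 of the deletion and replicate 1 of the wild type on bran-cellulose, and at -0.89 under median-ratio scaling. XLOC_006001 (bran-cellulose against glucose, 2.27) had an adjusted p of 0.0488, and without replicate 3 of the wild type on glucose it was at 1.72 (adjusted p = 0.111). Of the 12 libraries on these media, the call held without replicate 2 of the wild type on bran-cellulose or replicates 1 or 2 of the wild type on glucose, and ended without any of the other 9.

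By highest group mean, 13 of the 30 loci (43.3%, against 31.4% of PDE_ identifiers) were highest in the deletion on GlcNAc. The deletion on glucose was the highest group for 7 loci (23.3% against 21.4%), and the wild type on bran-cellulose and the wild type on GlcNAc for 4 each (13.3%, against 11.5% and 17.6%). The lowest group was the wild type on GlcNAc for 10 loci (33.3% against 30.7%). XLOC_001130, XLOC_003102, XLOC_007168 and XLOC_007808 were among those lowest in the wild type and highest in the deletion on GlcNAc.

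The loci did not form a single pattern. Over the 435 pairs of the 30 loci the median Pearson r of log2(FPKM + 1) across the 18 libraries was 0.05. XLOC_000875 and XLOC_005072 (0.928) and XLOC_002227 and XLOC_007808 (0.922) were the 2 pairs with r of at least 0.9, and XLOC_000875 with XLOC_004751 (-0.908) was the only pair at -0.9 or lower. These correlations run over 18 libraries that share 6 groups, and are descriptions. The PDE_ identifiers with the most similar pattern were found for the 4 loci with the widest range of group means, by the same r. For XLOC_006001 they were PDE_00572 (0.955) and PDE_06062 (0.953), with 1578 and 1357 FPKM in the wild type on glucose against 401.4 and 258.8 FPKM in the deletion. On GlcNAc PDE_00572 and PDE_06062 were at 2386 and 2079 FPKM in the wild type and at 1988 and 2326 FPKM in the deletion, while XLOC_006001 was at 300.3 and 151 FPKM in these groups. For XLOC_001124 they were PDE_00888 (0.988) and PDE_01694 (0.978), and PDE_00888 had group means of 38.3 FPKM in the wild type and 87.7 FPKM in the deletion on GlcNAc. PDE_01694 had 72.8 and 89.9 FPKM in these groups, and XLOC_001124 had 62.9 and 180.9 FPKM. For XLOC_005072 they were PDE_00668 (0.955) and PDE_03888 (0.951), the second of which had 3.07 and 10.2 FPKM on GlcNAc in the wild type and the deletion and at most 1.10 FPKM as a mean elsewhere. PDE_00668 had 34.4 and 59.4 FPKM on GlcNAc in these genotypes and means of 19.2 to 28.3 FPKM elsewhere. For XLOC_001130 they were PDE_04950 (0.972) and PDE_04306 (0.970), with 12.6 FPKM for PDE_04306 in the deletion and 2.74 FPKM in the wild type on GlcNAc. PDE_04950 had 46.2 and 26.6 FPKM in these groups, and XLOC_001130 had 55.5 and 1.74 FPKM. The r takes no account of the size of a change, and each match was picked as the highest among the PDE_ identifiers that passed the filter.

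The remaining loci were called in none of the comparisons of 2 groups or did not pass the filter. In the 9 comparisons of 2 groups 23 of 30 loci (76.7%) were called at least once, beside 4661 of all 8390 identifiers (55.6%). The 7 called in none were XLOC_000362, XLOC_000425, XLOC_002001, XLOC_002227, XLOC_002852, XLOC_004351 and XLOC_008527. XLOC_002227 was the highest of these after XLOC_002001, at 27.64, 28.67 and 26.07 FPKM in the wild type and 45.87, 47.88 and 49.18 FPKM in the deletion on GlcNAc. The groups did not overlap there, and the difference of 0.77 was under the fold threshold (adjusted p = 1.10e-06), while its 12 libraries on the other media lay between 21.3 and 30.8 FPKM. XLOC_008527 lay within 2.55 to 7.24 FPKM, XLOC_002852 within 1.1 to 2.97 FPKM, XLOC_004351 within 0.92 to 2.45 FPKM and XLOC_000362 within 0.84 to 2.41 FPKM over the 18 libraries. On GlcNAc the mean of XLOC_008527 was 2.76 FPKM in the wild type and 5.79 FPKM in the deletion. XLOC_000362 had means of 1.00 and 2.09 FPKM there, and neither locus overlapped between genotypes. With an offset of 0.1 FPKM XLOC_008527 was called on GlcNAc (adjusted p = 0.000181, log2 difference 1.05). That offset also gave a call for XLOC_002852 between bran-cellulose and GlcNAc in the deletion (-1.01). XLOC_000425 had the smallest range of group means, 0.20 on the log2(FPKM + 1) scale, with libraries within 0.55 to 1.11 FPKM.

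The 5 loci removed by the filter were XLOC_000909, XLOC_001152, XLOC_004087, XLOC_004452 and XLOC_006261, with means between 0.0628 and 0.457 FPKM. XLOC_001152 was listed at 0 in 15 of 18 libraries and at 0.37 to 0.38 FPKM in the others, XLOC_004087 was at 0 in 6 and XLOC_004452 in 3. The highest single library of these loci was 1.11 FPKM, for XLOC_000909. No difference between groups was tested for them.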

How the data were processed

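The deposited values are FPKM with 2 decimals, 1 column for each of 18 libraries, per the file headers. Per the labels' protocols, libraries were made from tags cut with NlaIII and MmeI, while the deposited unit is divided by length. Not given in the sources used here are the aligner, the tool that assembled the XLOC_ loci, the counting tool, the build and the gene annotation. Whether the length divisor of a locus is the same in every library is not stated, and the comparisons between groups take it to be. The divisor also decides whether the locus passes the filter and how far the offset of 1 FPKM shrinks its log2 difference. FPKM are not counts, so no count test was run, and the read depth is unknown. Columns were matched to samples by name, and groups were taken from the labels.

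The 8390 of 9261 identifiers that reached 1 FPKM in 3 or more libraries were fitted by limma 3.58.1 in R 4.3.3 on log2(FPKM + 1), with 1 mean for each of 6 groups and an intensity trend in the prior, two-sided, with Benjamini-Hochberg adjustment over the 8390 identifiers of each of 12 comparisons. The fit was also run on simulated data, for the genotype comparison on GlcNAc alone. Changes were put only into identifiers above a minimum wild-type level and were called by adjusted p alone. The fold threshold and the lowest loci were therefore not covered by that run. Descriptions used Python 3.11.15 with pandas 2.3.3 and matplotlib 3.10.9. Values of every library were given for at most 3 called, non-overlapping loci in each direction per comparison, for the 3 highest loci and for loci with a called interaction, plus loci named with a call. The gene names brlA and cel7A-2 are recalled from published work on strain 114-2. Alternatives were a pseudocount of 0.1, no filter, median-ratio scaling, only the groups compared, the replicate number as a block, no fold threshold, and leaving out 1 library. The members, comparisons and rules were chosen with earlier results of these data known.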

Additional observations from a re-analysis of the deposited data

Results flagged for a closer look

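The genotype difference (deletion minus wild type, on log2(FPKM + 1)) differed between media, by the limma interaction test with adjusted p under 0.05 and an absolute value of at least 1, in 29 cases over 17 loci. Those 17 are 56.7% of the loci tested, beside 36.4% of all identifiers with at least 1 called interaction. The groups hold 3 libraries, so no library was tested as lying far from its group.

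The values for GlcNAc minus glucose were positive for XLOC_001130 (4.43), XLOC_000875 (2.33), XLOC_003102 (2.00), XLOC_001124 (1.94), XLOC_004037 (1.72), XLOC_007808 (1.44), XLOC_000583 (1.37) and XLOC_002444 (1.21). They were negative for XLOC_000468 (-4.71), XLOC_006376 (-2.30), XLOC_001263 (-2.21), XLOC_009435 (-1.90), XLOC_003508 (-1.39), XLOC_000549 (-1.30) and XLOC_004751 (-1.03). The value for XLOC_004751 was under the fold threshold when some single libraries were left out, such as replicate 1 of the deletion on glucose (-0.90). XLOC_006376 and XLOC_000549 are listed at 0 in the deletion on GlcNAc, so the size of their values depends on the offset of 1 FPKM. XLOC_000549 passed the filter on low values only through its deletion glucose libraries, so its value against glucose is in part a matter of the filter. The same holds for XLOC_000875, which passed only through its GlcNAc libraries.

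The values for bran-cellulose minus GlcNAc were negative for XLOC_001130 (-3.88), XLOC_000875 (-2.19), XLOC_004037 (-1.99), XLOC_001124 (-1.76), XLOC_000583 (-1.52), XLOC_007168 (-1.28), XLOC_007808 (-1.28) and XLOC_003102 (-1.01). They were positive for XLOC_000468 (3.78) and XLOC_006376 (2.23). The value for XLOC_003102 was under the fold threshold with median-ratio scaling (-0.89) and when some single libraries were left out. XLOC_000875 passed the filter only through its GlcNAc libraries, so its value here is in part a matter of the filter.

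The values for bran-cellulose minus glucose were -1.49 for XLOC_003508, -1.42 for XLOC_009435, -1.38 for XLOC_001263 and 2.27 for XLOC_006001. The value for XLOC_006001 had an adjusted p of 0.0488 in the limma interaction test. Its call ended under several alternatives, among them an offset of 0.1 FPKM (adjusted p = 0.0519) and leaving out replicate 3 of the wild type on glucose (0.111). Comparisons that involve the same medium share its libraries.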

How the results depend on the processing

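Of the 108 calls of a locus in a comparison, 94 held under every alternative, 14 were lost in at least 1 and 0 were reversed, with 13 lost when 1 library was left out, 4 under median-ratio scaling, 2 with no filter, 2 with only the groups compared and 2 with a pseudocount of 0.1. How often the calls of all identifiers held is not given here, so these counts have no background. Without the fold threshold 7 loci differed between genotypes on glucose (4 before, and 35.2% of all identifiers) and 26 on GlcNAc (13, 64.1%). It gave 15 between bran-cellulose and glucose in the wild type (8, 54.6%) and 19 in the deletion (10, 57.8%), 18 between GlcNAc and glucose in the wild type (7, 62.6%), 20 between bran-cellulose and GlcNAc in the deletion (10, 55.3%), and 20 for the interaction of these media (10, 50.1%). With a pseudocount of 0.1, 20 loci differed between genotypes on GlcNAc (30.3% of all identifiers) and 16 in the interaction of bran-cellulose and GlcNAc (26.8%). Among only the loci and PDE_ identifiers that pass the filter, the median percentile was 11.2, against 17.7. Same-numbered replicates did not deviate together in every pair of groups (correlations of -0.171 to 0.294). With the replicate number as a block 13 loci still differed between genotypes on GlcNAc, beside 27.5% of all identifiers. The interaction of XLOC_006001 between bran-cellulose and glucose was then lost (adjusted p = 0.0530, and 0.0519 to 0.125 in the other alternatives that ended it). The causes of these lost calls were not tested, and the unknown depth limits what can be read from loci under 1 FPKM.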
